A study of Mus musculus with 2 samples.

Results

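Liver vessels that carry arterial blood or portal blood are lined by endothelial cells that differ from those of the sinusoids, and barcodes carrying markers of such cells were taken from single-cell RNA sequencing of mouse liver. A barcode stands for the RNA of 1 droplet, usually 1 cell, and a UMI (unique molecular identifier) for 1 counted transcript. Members were selected on measured UMI counts: at least 1 UMI of Ptprb, a phosphatase of endothelial cells, and at least 4 UMIs in the sum of Mecom, Adgrg6, Gja5 and Thsd7a, the rule genes. At most 1 UMI was allowed in the sum of Ptprc, Clec4f and Reln, markers of leukocytes, Kupffer cells and stellate cells, and at most 1 in the sum of Rspo3 and Wnt9b, markers of the central vein. The rule gave 485 members among 23889 kept barcodes, 227 of 11458 in the knockout-labelled library and 258 of 12431 in the wild-type library.

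The study compared liver tissue of SLC22A18-/- mice with that of SLC22A18+/+ mice, with 1 library for each genotype. SLC22A18 is written Slc22a18 below, the mouse symbol of this imprinted transporter gene. The sources used here do not give strain, age, sex, treatment, the number of animals or which part of the gene was deleted. With 1 library per genotype there are no replicates, so no test was run and the difference between genotypes cannot be told apart from a difference between animals or preparations. Ranges in parentheses are exact 95% intervals that cover counting error only. Where values come in pairs, the knockout-labelled library is given first and the wild-type library second.

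The liver receives oxygen-rich blood from the hepatic artery and nutrient-rich blood from the portal vein, and both drain through the sinusoids to the central vein. Arterial endothelium is known for Notch and ephrin-B2 signalling and for gap junctions built from the connexin that Gja5 encodes. Endothelium of larger vessels makes von Willebrand factor (Vwf) and lies on a continuous basement membrane. Sinusoidal endothelium is fenestrated and takes up waste from the blood through scavenger receptors such as stabilin-2 (Stab2) and the lectin receptor Clec4g. Mecom encodes a zinc finger transcription factor, Adgrg6 an adhesion G protein-coupled receptor and Thsd7a a membrane protein with thrombospondin repeats.

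The deposited libraries held 103478998 UMIs in 11741 barcodes and 105556354 UMIs in 12796 barcodes. Members had a median of 10620 and 10720 UMIs and 3789 and 3894 detected genes. The sinusoidal barcodes they are set beside, 1874 and 2026 of them, had medians of 7640 and 7869 UMIs. Between the libraries 38 barcode sequences were shared, and 0 of these were members in both. Doublet calling marked 8 and 6 members, which were kept, and 1 knockout-labelled member also passed the gate of another cell class. Slc22a18 itself (ENSMUSG00000000154, GRCm38 chromosome 7, 143473736 to 143499334) did not separate the labels among members, with 15 and 24 UMIs, or 5.2 and 6.96 counts per 1000000 UMIs of the class (CPM). The ratio of the knockout-labelled to the wild-type level was 0.748 (0.365 to 1.49). In sinusoidal barcodes it was 0.842 (0.638 to 1.11). A 3' read outside the deleted part would not check the label, so the first library is called knockout-labelled throughout.

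Most members carried sinusoidal markers and few carried Gja5 or Ly6c1, so the data go partly against the label of portal and arterial endothelium. Stab2 was found in 94.3% and 92.2% of members, and Clec4g in 92.1% and 92.6%. Neither gene was part of the rule for members. Their summed median was 30.4 and 26.5 UMIs per 10000 in members, 50.5 in sinusoidal barcodes of both libraries and 0 in B cells. The B cell gate allowed at most 1 UMI in the sum of Stab2 and Clec4f, so the B cell value partly follows that gate. In 66.1% (59.5 to 72.2) and 62.8% (56.6 to 68.7) of members the sum reached at least 20 per 10000, a level that 94.3% and 96.2% of sinusoidal barcodes also reached. Central vein barcodes, gated on at least 4 UMIs of Rspo3 and Wnt9b, were close to members. Their medians were 29.4 and 31.5, and 69.4% and 70.75% of them reached 20 per 10000, so this level was not particular to members. Of the named markers, Mecom was found in 98.2% and 96.9% of members and Adgrg6 in 66.1% and 70.2%. Gja5 was found in 12.3% (8.36 to 17.3) and 15.9% (11.7 to 20.9), and Ly6c1, a surface antigen of continuous endothelium that the rule did not use, in 10.6% (6.89 to 15.3) and 17.8% (13.4 to 23.1). The members are therefore described as endothelial barcodes chosen mostly through Mecom, a rule gene. Those with a Gja5 UMI, 28 and 41, are described separately.

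**Figure D1:**
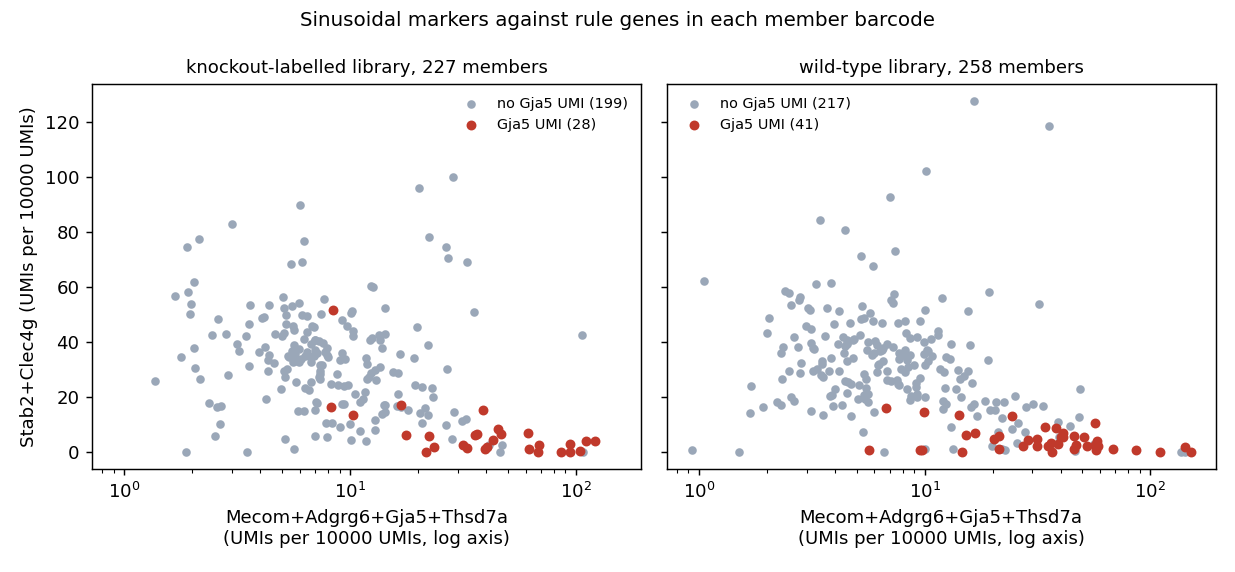
Each point is a member, with the sum of the 4 rule genes on the horizontal axis (UMIs per 10000, log axis) and the sum of Stab2 and Clec4g on the vertical axis (UMIs per 10000). Red points, the 28 and 41 members with a Gja5 UMI, lie low on the vertical axis with medians of 3.92 and 2.74, while grey points without one have medians of 33.8 and 30.8.

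Mecom set membership more than the other rule genes. It held 61.8% and 56.9% of the rule genes' UMIs, and in 188 and 203 members it reached 4 UMIs alone. Its highest count in a member was 161 and 132 UMIs, around a median of 6 in each library. Adgrg6 held 23% and 27.7%, with a median of 2 UMIs per member. Thsd7a was found in 14.1% and 20.5% of members, and Gja5 held the least, 3.67% and 5.32%. Mecom with Adgrg6 and neither of the other genes was the most common pattern, in 114 and 121 members, and Mecom alone came next with 71 and 70. All 4 genes were found together in 20 and 29 members. On GRCm38, Mecom (ENSMUSG00000027684, chromosome 3, 29951296 to 30548008) and Gja5 (ENSMUSG00000057123, chromosome 3, 96904693 to 97077416) lie on the same chromosome, Adgrg6 (ENSMUSG00000039116, chromosome 10, 14402583 to 14545659) and Thsd7a (ENSMUSG00000032625, chromosome 6, 12311610 to 12749410) on others. These values chose the members and are given as a description.

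Around the limit of the rule, marker levels moved gradually. Barcodes that met every other condition numbered 73 and 67 with a rule sum of 3, just outside, and 45 and 53 with a sum of 4, just inside, leaving out barcodes that carried other cell types' markers, as described below. Stab2 stood at 2936 and 3135 CPM just outside and 2444 and 2222 just inside. Efnb2, the gene of ephrin-B2, stood at 269 and 246 and at 249 and 273, and Vwf at 5.5 and 10.3 and at 8.57 and 23.3. The distance was far greater to the barcodes with a sum of at least 20, numbering 46 and 63. There Stab2 had 828 and 785 CPM, Vwf 430.4 and 568, and Fbln2, a matrix protein of vessel walls, 356 and 424 against 0 UMIs in both libraries at a sum of 4. Median depth was also higher there, 15627 and 11887 UMIs against 7826 and 9556, and its part in these differences was not tested.

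**Figure D2:**
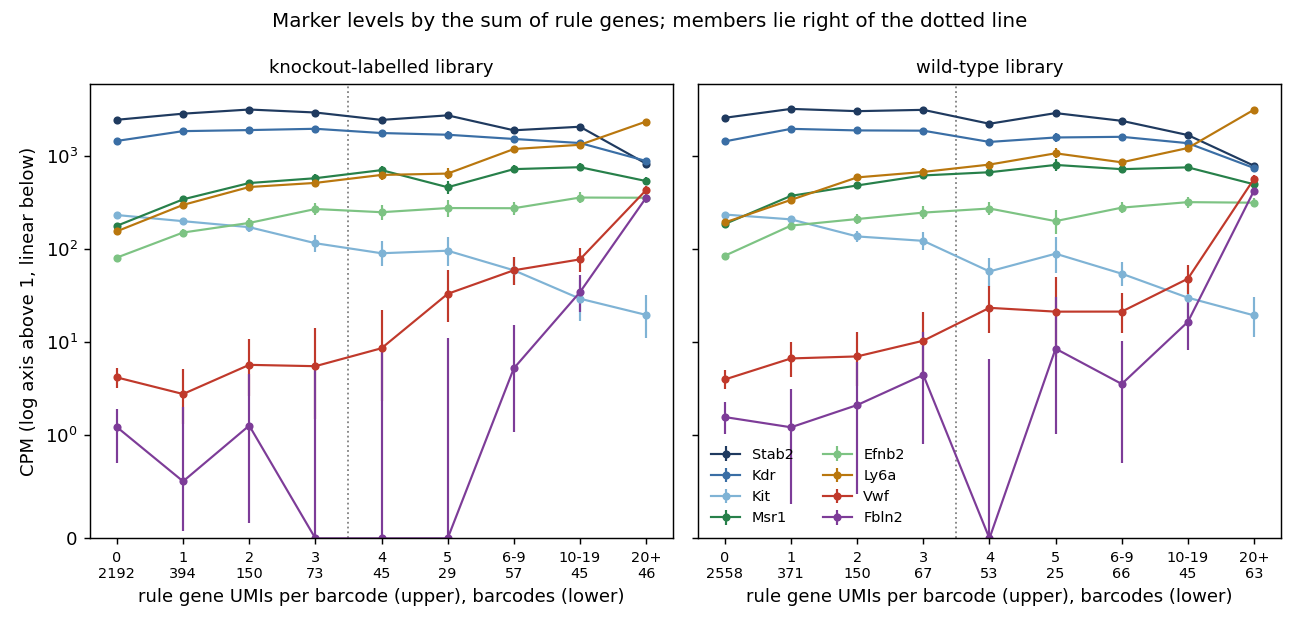
CPM of 8 genes (log axis above 1) by the sum of rule genes per barcode, with the number of barcodes under each bin and 95% counting intervals, without barcodes that carry other cell types' markers. Stab2, Kdr and Kit stand lowest in the bin of 20 or more, where Ly6a, Vwf and Fbln2 stand highest, and Efnb2 and Msr1 are already above their level at 0 in the bins before the dotted line.

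Some members carried RNA of other cell types. In the knockout-labelled library 5 members and in the wild-type library 6 had at least 10 UMIs of a cholangiocyte, fibroblast or mesothelial marker list, a limit chosen after seeing the data. They held 3.74% and 6.09% of the members' UMIs, 0 of them were called doublets, and 3 and 4 of them had only 1 or 2 UMIs of Ptprb. The fibroblast list reached 462 UMIs in 1 knockout-labelled barcode and 893 in 1 wild-type barcode, and the cholangiocyte list reached 458 and 971. A further wild-type barcode, with 98965 UMIs and 33 of Gja5, had 12 fibroblast UMIs. These barcodes are called set-aside, and results they touch are given with and without them, for 222 and 252 members. Without them the summed fibroblast list (8 genes) went from 344 and 406 CPM to 22.3 and 29.3, with Dpt at 0 in the knockout-labelled library, and the cholangiocyte list (7 genes) from 177 and 521 to 16.9 and 22.2, with Krt7 and Cftr at 0. Hepatocyte RNA was in every class: the 10 genes summed to 4260 and 6019 CPM in members and 9125 and 8259 in sinusoidal barcodes. The lymphatic endothelial list (6 genes) had 2047 and 2173 UMIs over all members, or 710 and 630 CPM, against 1117 and 1074 CPM in sinusoidal barcodes. Within that list Pdpn had 7 and 9 UMIs, Mmrn1 1 and 4 and Ccl21a 3 and 3, so other genes of the list held most of its UMIs.

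Set against the sinusoidal barcodes of the same library, members had more RNA of most measured arterial and periportal genes and less of Wnt2, Kit and Lhx6, known from the central side of the lobule. Sinusoidal barcodes were gated on at least 4 UMIs of Stab2 and Clec4g and at most 1 of the rule genes, so this contrast follows the gates and its counts are a description. A gene was called by size with a CPM ratio of at least 2 the same way in both libraries, an interval excluding 1, at least 20 UMIs, a UMI in at least 5% of the barcodes of the higher class, and a level of at least 10% of the highest of 5 other cell classes. Of 10894 genes with enough counts, 184 were called higher (1.69%) and 55 lower (0.505%). Without set-aside barcodes these were 166 (1.54%) and 55 (0.511%) of 10770.

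The arterial list had 10 of 16 measured genes called higher and 0 lower, with median log2 ratios of 1.56 and 3.0 against -0.01 and 0.01 over all genes measured. Without set-aside barcodes the same 10 of 16 were called, and the medians were 2.31 and 1.99. Fbln2 stood at 109 and 150.2 CPM in members and 0.65 and 1.07 in sinusoidal barcodes, with UMIs in 15.9 and 19.8% of members. Bmx, a tyrosine kinase of arterial endothelium, had 31 and 79 UMIs in members and 2 and 1 in sinusoidal barcodes, or 10.8 and 22.9 CPM against 0.13 and 0.0597. Jag1, a Notch ligand, stood at 90.2 and 99.1 CPM against 4.68 and 6.69, and Hey1, a transcription factor induced by Notch, at 13.5 and 21.4 against 0.91 and 0.956. Vegfc, a growth factor for vessels, had ratios of 9.21 (8.31 to 10.2) and 6.77 (6.1 to 7.51). The ratios of Sox17 and Efnb2 were smaller, 2.08 and 2.12 and 2.64 and 2.3. Those of Dll4, 1.87 and 1.77, and Gja4, 1.51 and 1.61, did not reach the limit of 2, nor did Nrp1 with 0.867 and 0.806. Hey1, Jag1, Nrarp and the lower Lfng, which modifies Notch receptors, were the called genes of the Notch list, 3 of 13 higher and 1 lower.

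Genes known from sinusoids near the portal tract were higher across most members. Efnb2 was found in 84.6 and 83.3% of members against 44.4 and 46.1% of sinusoidal barcodes. Of the list for periportal sinusoids, 4 of 6 were called higher: Efnb1, Efnb2, Msr1 and Ntn4. Efnb1, a further ephrin, stood at 573 and 559.8 CPM against 104 and 110.5, for ratios of 5.49 (5.12 to 5.89) and 5.07 (4.75 to 5.4). Ntn4, a netrin of basement membranes, stood at 839 and 718 against 210.3 and 234. Msr1, a scavenger receptor, stood at 634 and 624 against 257 and 268 and was found in 93.4 and 93.8% of members. When the Gja5-negative members alone, set-aside barcodes included, were set beside sinusoidal barcodes, 93 genes were called higher (0.859%) and 59 lower (0.545%) of 10831, and the periportal list again had 4 of 6 higher, the arterial list 5 of 13.

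Of the list for continuous endothelium of larger vessels, 5 of 21 were called higher and 0 lower. Vwf, whose protein helps platelets adhere to injured vessel wall, stood at 155 and 180.3 CPM in members and 4.29 and 4.42 in sinusoidal barcodes. Cd34, a sialomucin of continuous endothelium, stood at 49.6 and 78.6 against 7.08 and 10.2, and Ly6a at 1365 and 1573 against 222 and 264. Ly6c1 stood at 43 and 146 against 0.585 and 0.836. In the wild-type library 282 of its 505 UMIs came from the set-aside barcode of 98965 UMIs, and without set-aside barcodes it stood at 44.7 and 68.5. Its paralogue Ly6c2 shares 15.1% of the 50-base windows in the last 500 bases of Ly6c1 transcripts. The counting of the pair is therefore uncertain, to an extent that was not measured. Tm4sf1 had ratios of 2.13 and 2.2. Without set-aside barcodes 4 of 20 were called higher, and Tm4sf1, with 2.12 and 1.95, was not. Pecam1, Cldn5 and the other measured genes of the list were not called.

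Some genes of vascular tone and clotting were called as well. The tone list had 4 of 14 higher and 0 lower, namely Ace, Edn1, Ednrb and Npr3. Ednrb, the endothelin B receptor, stood at 495 and 587 CPM against 16.1 and 15.9, and Edn1, the gene of the vasoconstrictor endothelin-1, at 59.7 and 64.3 against 2.4 and 2.15. Npr3, the clearance receptor for natriuretic peptides, stood at 63.5 and 60.6 against 0.52 and 0.956. The clotting list had 3 of 11 higher, Plat, Procr and Vwf, and 1 lower, Plau, and its median log2 ratios were -0.01 and 0.03. Plat, the tissue plasminogen activator, had ratios of 21.1 and 15, and Plau, the urokinase activator, of 0.0427 (0.00107 to 0.242) and 0.123 (0.0331 to 0.321).

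Among the genes with the largest ratios were an enzyme, secreted factors and a membrane protein. Cyp1a1, a cytochrome induced by aryl hydrocarbon receptor ligands, had 71 and 83 UMIs in members and 2 and 0 in sinusoidal barcodes, which is a ratio of 189.5 (50.5 to 1595) in the knockout-labelled library and at least 134-fold higher in the wild-type library, against a floor of 3 counts over the class. Slit2, a guidance ligand, stood at 84.3 and 59.1 CPM against 0.78 and 0.777, and Nrg1, the growth factor neuregulin-1, at 285 and 249 against 2.73 and 6.75. Emp1, a membrane protein, had ratios of 135 and 64.4, and Igfbp5, which binds insulin-like growth factors, of 39.2 and 37. Mgp, an inhibitor of calcification and a called gene of the arterial and matrix lists, stood at 86.4 and 345 against 0.715 and 1.73, and without set-aside barcodes it stood at 42.5 and 71.6. In the wild-type library 1 barcode held 70.9% of its UMIs.

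Some genes known from endothelium near the central vein were lower in members. Of that list 3 of 7 were called lower, Kit, Lhx6 and Wnt2, although the member rule itself allowed at most 1 UMI of Rspo3 and Wnt9b, as the sinusoidal gate did. Wnt2, a ligand that reaches neighbouring hepatocytes, stood at 29.5 and 26.4 CPM in members, 229 and 216 in sinusoidal barcodes and 647 and 664 in the 219 and 147 central vein barcodes. The receptor tyrosine kinase Kit stood at 50.3 and 40.3, 280.4 and 289 and 539 and 646 in the same order. Lhx6, a LIM homeobox factor, had 3 and 5 UMIs in members against 491 and 341 in central vein barcodes. Of the sinusoidal list 1 of 17 was called lower, the hyaluronan receptor Lyve1 with 257 and 245 CPM against 556 and 525. The median log2 ratio of that list was -0.45 and -0.59.

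Central vein barcodes also held RNA of some of the vessel genes. Fbln2 stood at 90.1 and 67.3 CPM there, Vwf at 104 and 69.1 and Edn1 at 116 and 69.7, against member levels of 109 and 150.2, 155 and 180.3 and 59.7 and 64.3. Msr1 stood at 24.8 and 17.9, Efnb2 at 38.5 and 45.3, Vegfc at 8.26 and 13.1 and Cd34 at 3.54 and 3.58, below the member level in both libraries. Nrg1 had 3 and 2 UMIs in central vein barcodes against 821 and 860 in members. These comparisons follow the gates too, since central vein barcodes were chosen with at least 4 UMIs of Rspo3 and Wnt9b and at most 1 of the rule genes.

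Within the members, those with a Gja5 UMI had the vessel genes at high level and the sinusoidal genes at low level. The Gja5-positive members had a median rule sum of 40.5 and 40 UMIs against 7 and 6 in the Gja5-negative members, with median depths of 11896 and 11596 UMIs for the former and 9838 and 10596 for the latter. Without set-aside barcodes, 242 of 9915 genes were called higher in Gja5-positive members in both libraries (2.44%) and 228 lower (2.3%). With them these were 238 (2.36%) and 253 (2.51%) of 10066. Gja5 belongs to the rule, so this split describes the members and is no independent test.

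Of the arterial list 10 of 17 were called higher in Gja5-positive members and 1 lower. Fbln2 stood at 604 and 629.8 CPM in Gja5-positive and 26.3 and 31.6 in Gja5-negative members, and Bmx at 64.8 and 87.2 against 1.7 and 6.61. Eln, the gene of elastin, stood at 549 and 552 against 12.7 and 19.5, and Jag1 at 290.3 and 246 against 56 and 49.9. Efnb2 stood at 257 and 266 against 321 and 295, with ratios of 0.799 (0.646 to 0.979) and 0.899 (0.745 to 1.08). Ntn4 had ratios of 1.05 (0.937 to 1.17) and 1.02 (0.917 to 1.14) and Efnb1 of 1.17 (1.02 to 1.33) and 1.36 (1.21 to 1.52). Msr1 was lower with Gja5, at 312 and 319.7 against 699.6 and 725. Nrp1, a coreceptor for VEGF and semaphorins, was the arterial gene called lower, at 463 and 432 against 1065 and 1107. Efnb1, Efnb2 and Ntn4 thus stayed within a ratio of 2 either way, while the matrix genes and Jag1 passed it.

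Genes of continuous endothelium were called higher in Gja5-positive members for 8 of 21 of the list. Vwf stood at 804 and 752 CPM against 47.1 and 76.7 and was found in 96.4 and 90% of Gja5-positive members against 26.3 and 26.9%. Cd34 stood at 161 and 264 against 29.2 and 37.1. Plvap, a diaphragm protein of vessel openings, stood at 521 and 576 against 131 and 149.8, and the leukocyte adhesion receptor Selp at 746 and 494 against 15.7 and 58.4. Selp is also in the central vein list and was called lower in members than in central vein barcodes. Of that list 2 of 6 were called higher with Gja5, Cdh13 and Selp, and 2 lower, Kit and Wnt2. Ly6c1 had ratios of 13.8 (9.29 to 21) and 23.3 (16.5 to 33.5). Of members with a Ly6c1 UMI, 58.3% and 58.7% also had Gja5, and of those with Vwf 34.2% and 38.5%.

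Of the tone list 4 of 14 were called higher in Gja5-positive members and 0 lower. Ednrb stood at 1439 and 1752 CPM against 343 and 408 and Edn1 at 350.2 and 281 against 11 and 15.8. Npr3 stood at 419.8 and 333 against 3.39 and 11.8, and Ace, the angiotensin-converting enzyme, at 62.4 and 42.6 against 3.39 and 3.31. Cyp1a1 stood at 151 and 151 against 3.39 and 1.84 and Col8a1, a collagen of vessel walls, at 226 and 238 against 0.424 and 2.57. Of the immediate early and heat shock genes, often raised during tissue dissociation, 5 of 20 were called higher and 0 lower. Atf3 stood at 1075 and 789 and Hspb1 at 324 and 362 in Gja5-positive members against 396 and 375 and 20.8 and 24.2. Their part in the other differences was not tested.

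Of the sinusoidal list 17 of 19 were called lower in Gja5-positive members, with median log2 ratios of -1.66 and -1.83 against 0.03 and 0.01 over all genes measured. Fcgr2b, an Fc receptor for immune complexes, stood at 146 and 129.8 CPM against 1103 and 1014, and the mannose receptor Mrc1 at 353 and 267 against 1255 and 1244. Kdr, the main VEGF receptor, stood at 482 and 426 against 1523 and 1437. Lyve1 had ratios of 0.166 (0.102 to 0.256) and 0.278 (0.199 to 0.379). The levels in Gja5-positive members were not 0: Mrc1 was found in 78.6 and 82.5% of them and Stab2 with Clec4g reached 16.7 and 13.2 UMIs per 10000 at the 95th percentile.

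Further pathway lists were counted in the same way. Against sinusoidal barcodes, the ephrin list had 3 of 7 higher (Efnb1, Efnb2 and the receptor Epha4), the matrix list 4 of 22 (5 of 22 without set-aside barcodes) and the list of endothelial transcription factors 3 of 29 (Gata6, Sox17 and Sox4). The interferon list had 0 of 22 called, the antigen presentation list 0 of 14 and the list of lipid and water transport 0 of 12. With 1.69% of all genes called higher and 0.505% lower, these counts of 0 are near the background. Of the markers of other cells, Col3a1 and Pi16 of fibroblasts, Spp1 of cholangiocytes and Gpm6a of mesothelium were called higher. Without set-aside barcodes Pi16 and Gpm6a were still called, while Col3a1 had ratios of 0.7 and 0.95 and Spp1 of 0.723 and 0.974 and were not. With Gja5, the VEGF list had 1 of 11 higher, Vegfc, and 4 lower, Angpt2, Flt4, Kdr and Nrp1. The BMP and TGF-beta list had 3 of 18 higher and 3 lower. Its receptor Acvrl1 stood at 103 and 114 CPM against 30.5 and 43, and the ligand Bmp2 at 173 and 240.3 against 1290 and 1060. The Notch list had 4 of 13 higher and 0 lower, Dll1, Hey1, Jag1 and Nrarp. The interferon and antigen presentation lists again had 0 called, of 21 and 14, where 2.44% of all genes were called higher and 2.3% lower. Lists of this size would hold few or no called genes at those shares.

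**Figure D3:**
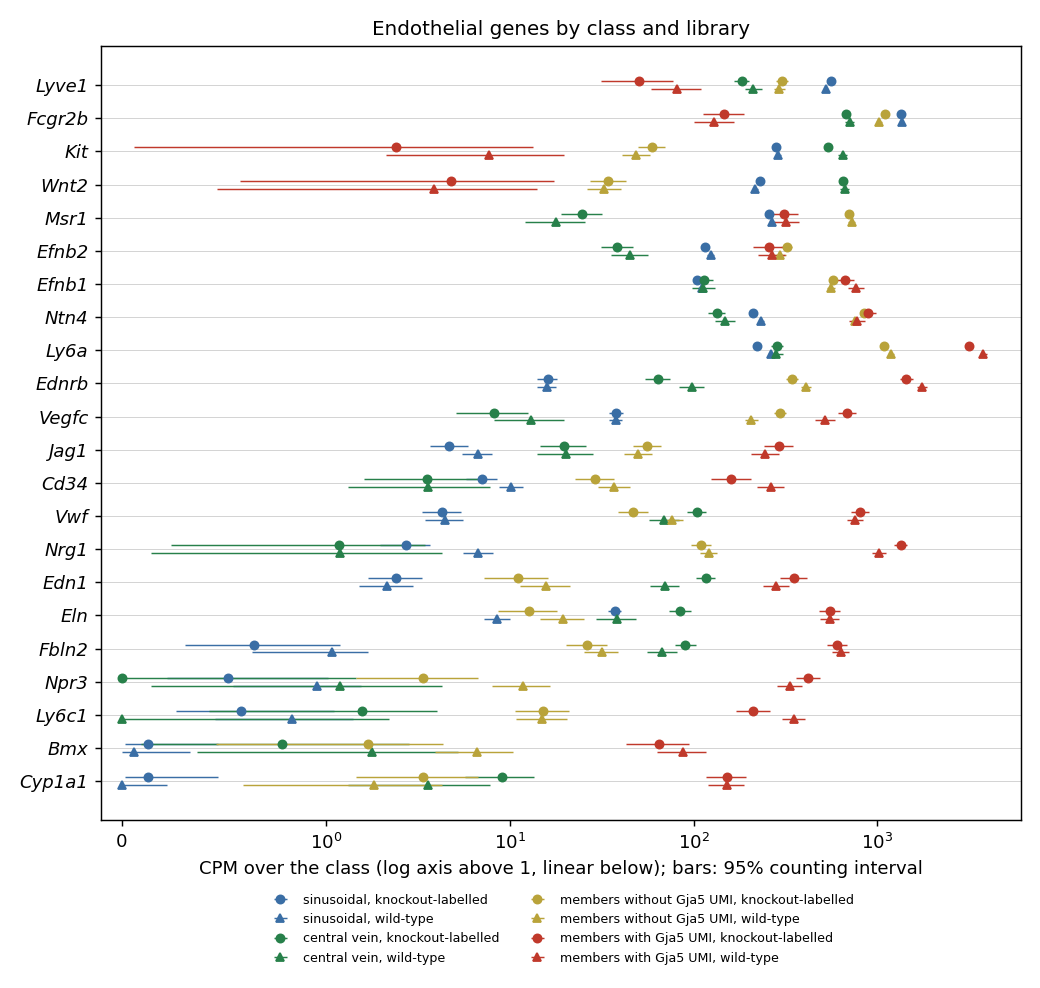
CPM of 22 genes (log axis above 1) in sinusoidal barcodes, central vein barcodes and members without and with a Gja5 UMI, the members without set-aside barcodes, with 95% counting intervals, for each library (circles and triangles). Fbln2, Npr3, Ly6c1, Bmx and Cyp1a1 are highest in members with Gja5 (red), whereas Msr1 is highest in members without it (yellow), and Wnt2 and Kit are highest in central vein barcodes (green).

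Shares of barcodes with a UMI depend on depth, so each barcode was also thinned to 3000 UMIs, which left out 10 and 12 members and 310 and 359 sinusoidal barcodes that were shallower. After thinning, Gja5 was found in 8.29% and 9.76% of members and 0% and 0.06% of sinusoidal barcodes, from 12.3% and 15.9% and 0% and 0.197% before. Vwf was found in 19.4% and 20.3% of members against 1.53% and 1.5% of sinusoidal barcodes and 0.781% and 0.553% of B cells, which should lack it. Efnb2 was found in 55.3% and 52.9% of members against 25.6% and 28.4% and 1.56% and 2.03%. Stab2 was found in 84.8% and 84.2% of members, 98.5% and 98.7% of sinusoidal barcodes and 8.07% and 8.3% of B cells, whose median depths were 3885 and 4101 UMIs. The Stab2 shares of sinusoidal barcodes and B cells follow their gates. The former needed at least 4 UMIs of Stab2 and Clec4g, and the latter allowed at most 1 of Stab2 and Clec4f. Slc22a18 was found in 1.84% and 2.03% of members and 1.04% and 1.66% of B cells. Cyp26b1, described below, was found in 46.5% and 14.2% of members and 1.82% and 0.922% of B cells.

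The share of members was close in both libraries, 1.98% (1.73 to 2.25) and 2.08% (1.83 to 2.34) of kept barcodes, for a ratio of 0.955 (0.795 to 1.15). Of barcodes with Ptprb and within the limit on Ptprc, Clec4f and Reln the shares were 6.66% and 6.94%, for a ratio of 0.959 (0.799 to 1.15). The limit on Rspo3 and Wnt9b was not applied to this total, so central vein barcodes were part of it. The share of members with Gja5 had a ratio of 0.776 (0.462 to 1.29). These intervals include 1, and they leave room for a decrease to 0.795 or an increase to 1.15 of the share of members from counting error alone.

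Between the libraries, the members' called genes were few and many of the calls rested on single barcodes. With at least 50 UMIs over both libraries and the other limits as above, 33 of 9938 genes were called higher in the knockout-labelled members (0.332%) and 51 lower (0.513%). Without set-aside barcodes these were 29 (0.298%) and 24 (0.247%) of 9723. Of the 33 higher calls 24 were also made without set-aside barcodes, and of the 51 lower calls 18. When each called gene's top barcode in the higher library was left out, 18 of the 33 and 13 of the 51 stayed past the ratio of 2. Among the 18 were Hba-a1, Hba-a2, Hbb-bs and Hbb-bt, haemoglobin genes whose UMIs lay mostly in 3 barcodes, as described below. Among the sinusoidal barcodes, which are more numerous, the same limits gave 44 higher (0.425%) and 4 lower (0.0386%) of 10356. In the 28 and 41 Gja5-positive members, with a limit of 20 UMIs over both libraries, 341 of 7351 genes were called higher (4.64%) and 200 lower (2.72%), and without set-aside barcodes 240 (3.42%) and 135 (1.93%) of 7008. Calls on so few barcodes can rest on 1 or 2 of them, and leaving out top barcodes was not run for this subset.

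Of the 33 higher and 51 lower calls, 5 genes were called the same way in sinusoidal barcodes. Slc15a2 (ENSMUSG00000022899, chromosome 16, 36750177 to 36784962), a peptide transporter, had 266 and 1 UMIs in members, for a ratio of 318 (56.6 to 12617), and was found in 46.7% and 0.388% of members. In sinusoidal barcodes it had 1377 and 0 UMIs, at least 499-fold higher in the knockout-labelled library, and in B cells 424 and 13. Cyp26b1 (ENSMUSG00000063415, chromosome 6, 84571414 to 84593908), which breaks down retinoic acid, stood at 316 and 58 CPM in members, for a ratio of 5.46 (4.68 to 6.39), against 4.22 (4 to 4.46) in sinusoidal barcodes. It was found in 67.4% and 33.7% of members. In Gja5-negative members it stood at 356 and 67.9 and in Gja5-positive members at 113 and 27.1. Csmd1, outside the 12 largest lower ratios of all members, was lower in the knockout-labelled library, with ratios of 0.421 (0.256 to 0.673) in members and 0.356 (0.305 to 0.414) in sinusoidal barcodes. The ratios of Slc15a2, Cyp26b1 and Csmd1 went the same way in both classes.

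Other higher calls had smaller ratios in sinusoidal barcodes, a difference between classes that was not tested. Gna14, a G protein subunit, had 86 and 31 UMIs in members, a ratio of 3.32 (2.18 to 5.18) against 1.54 (1.33 to 1.78) in sinusoidal barcodes. Slc1a2, a glutamate transporter, had ratios of 10.8 (6.24 to 20.4) and 1.85 (1.52 to 2.26), with UMIs in 7.93% and 5.43% of members, and 4.82 (2.65 to 9.37) without the member that held the most UMIs. Chst8, a sulfotransferase, had 3.15 (1.82 to 5.66) and 1.04 (0.755 to 1.42), and Cdk5rap1, a tRNA-modifying enzyme, 2.65 (1.59 to 4.55) and 1.87 (1.49 to 2.34). Cfap53, a cilia protein, had 4.65 (3 to 7.46) and 1.82 (1.52 to 2.19), and 2.51 (1.54 to 4.17) without the member that held 47 of its UMIs. Among genes lower in the knockout-labelled members were Dnal4, a dynein light chain, with 18 and 59 UMIs and ratios of 0.365 (0.203 to 0.628) and 1.17 (0.925 to 1.49), and Atad5, which unloads the replication clamp, with 0.408 (0.211 to 0.747) and 0.995 (0.798 to 1.24). G6pc, the glucose-6-phosphatase of hepatocytes, had 32 and 217 UMIs and a ratio of 0.176 (0.118 to 0.257), 0.439 (0.395 to 0.488) in sinusoidal barcodes, and it also stood at 21.9 and 63.3 CPM in B cells, which should lack it. Without set-aside barcodes its ratio was 0.162 (0.107 to 0.238), and it was not called only because its wild-type level lay under the limit of 10% set for free RNA.

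Most of the vessel genes named here as lower in the knockout-labelled members were no longer called without the set-aside barcodes, though their ratios stayed under 1. Among the set-aside barcodes, the wild-type barcode of 98965 UMIs held 282 of the 505 wild-type Ly6c1 UMIs. It had 169 UMIs of Ptprb, 33 of Gja5 and only 12 of the fibroblast list, and the limit of 10 UMIs was not scaled to depth. Leaving it out thus also removed a deep Gja5-positive member from the wild-type library. In the arterial list 4 of 16 were called lower, Bmx, Clu, Fbln5 and Mgp, and 0 higher. Without set-aside barcodes 1 of 15 was called, Fbln5. Mgp had a ratio of 0.251 (0.218 to 0.287) with them and 0.594 (0.472 to 0.744) without, Clu, the gene of clusterin, 0.238 (0.208 to 0.27) and 0.713 (0.557 to 0.909), and Ly6c1 0.294 (0.239 to 0.358) and 0.652 (0.519 to 0.816). Fbln5, a fibulin of elastic fibres, had 0.291 (0.218 to 0.384) and 0.474 (0.337 to 0.659), and 0.543 (0.397 to 0.736) when the wild-type member with the most UMIs alone was left out. Cd200 had 0.335 (0.248 to 0.447) and 0.584 (0.419 to 0.804), and Bmx 0.469 (0.299 to 0.72) and 0.574 (0.361 to 0.896). Krt8, a keratin of bile ducts, had 0.281 (0.219 to 0.358) and 0.778 (0.444 to 1.34). Fbln2 had 0.728 (0.63 to 0.839) and 0.892 (0.767 to 1.03). The share of members with Gja5 was also the smaller in the knockout-labelled library, and its part in these ratios was not tested.

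**Figure D4:**
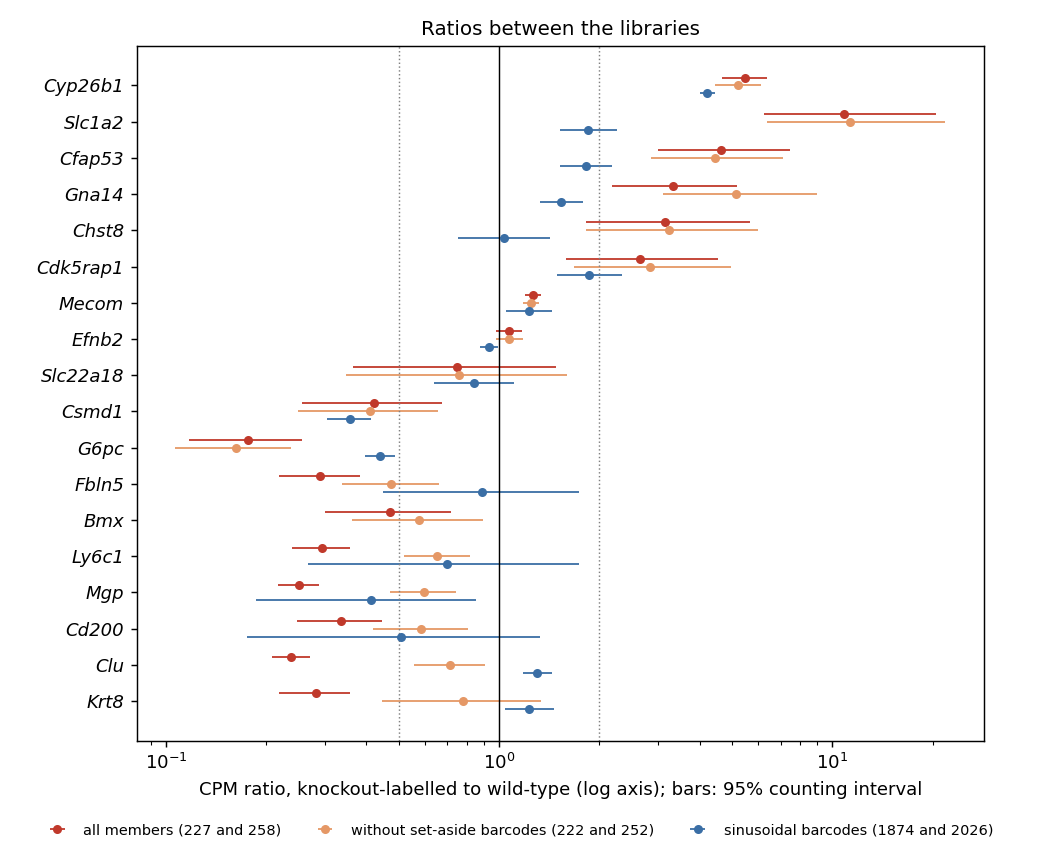
CPM ratio of the knockout-labelled to the wild-type library (log axis) for 18 genes in all members, in members without set-aside barcodes and in sinusoidal barcodes, with 95% counting intervals and dotted lines at ratios of 0.5 and 2; a class with under 20 UMIs of a gene is not drawn. Cyp26b1 stands between 4.22 and 5.46 in all 3 sets, while Mgp, Clu and Krt8 move towards 1 without set-aside barcodes.

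With 0.332% of all genes called higher and 0.513% lower between the libraries, lists of this size would hold few or no called genes, and the counts of 0 that follow are near that background. In the Notch list 13 genes were measured and 0 called, with a median log2 ratio of -0.08 against -0.01 over all genes measured. The Wnt list had 0 of 16, the BMP and TGF-beta list 0 of 18, the interferon list 0 of 21 and the antigen presentation list 0 of 14. The sinusoidal list had 0 of 19 and the periportal list 0 of 6. Efnb2 had a ratio of 1.07 (0.978 to 1.18). Mecom had a ratio of 1.27 (1.2 to 1.34), but members were chosen on this rule gene, so its ratio is a description and it was left out of the calls. A ratio within the limits does not show that levels were alike, and a gene with 50 UMIs in all can miss a ratio of 2 by counting error alone. Of the 15 genes of Slc22a18 and its imprinted neighbours 8 were measured and 0 called.

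Haemoglobin genes were higher in the knockout-labelled members, mostly through 3 barcodes. All 4 genes of the erythroid list were called, Hbb-bs with 3032 and 44 UMIs. Of 6452 haemoglobin UMIs in the knockout-labelled members, 6288 lay in 3 barcodes with 4111, 1321 and 856, while the 258 wild-type members held 102 in all and at most 10 in one. Without barcodes of at least 100 haemoglobin UMIs the summed ratio was still 1.95 (1.51 to 2.52). In sinusoidal barcodes such barcodes numbered 9 and 10, and without them the ratio was 1.25 (1.16 to 1.36). These genes were named after their values were seen.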

How the data were processed

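Single-cell RNA of liver tissue was captured in 2 libraries by 3' chemistry (Chromium v3, per the labels' protocols). The matrices were written by Cell Ranger (version 8.0.1 per the file headers), and STAR and mm10 are listed in the submitters' processing notes. Deposited values are raw UMI counts per gene and barcode, with no normalization by the authors, and every deposited barcode had at least 500 UMIs. Barcodes with at least 300 genes and at most 20% mitochondrial UMIs were kept. Of 33696 gene identifiers, 1735 were absent from the GENCODE M21 annotation of GRCm38 used for positions.

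Classes were gated on UMI sums, and UMIs were summed per class and scaled to CPM (Python 3.11.15, numpy 2.4.6, scipy 1.17.1). Ratios carry exact Clopper-Pearson intervals of the 2 counts, levels exact Poisson intervals and shares exact binomial ones. For log2 ratios, 0.5 was added to both sums. Free RNA was not subtracted. A gene under 10% of its level in the highest of 5 other gated classes (B cells, hepatocytes, Kupffer, stellate and T cells) was not called. Doublets were scored with Scrublet in scanpy 1.11.5 (expected rate 8%, 30 components), and the wild-type threshold of 0.302 was used for both libraries, giving 305 and 362 calls (2.66% and 2.91% of kept barcodes). Called barcodes were kept in the results and left out as an alternative.

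Named genes came from 36 lists, up to 6 called ones each way or else the 2 with most UMIs. The 12 largest called ratios each way in each comparison, the rule genes, Ly6c1 and Slc22a18 were added, and mitochondrial, ribosomal, haemoglobin and immunoglobulin genes were left out. Haemoglobin genes and a few further list members, such as Dll4 and Gja4, were named after their values were seen. Members and lists were chosen with earlier results of these data known. The size rule was run on simulated counts with counting error only, without spread between barcodes and without the limit for free RNA. That run cannot show how the rule treats genes whose UMIs lie mostly in single barcodes. Alternatives changed the gates, filters, scaling, weighting and limits.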

Additional observations from a re-analysis of the deposited data

How the results depend on the processing

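No paired analysis was possible because each genotype had 1 library with no replicate numbers, and for the same reason no replicate could be left out. Of 73 comparisons of the shares and of the counts of called genes under an alternative, 55 stayed within the interval or within 1.5 times, among them every alternative for the shares of members and of Gja5. The counts that moved are given next, beside 33 higher and 51 lower between the libraries and 184 higher and 55 lower against sinusoidal barcodes. With a rule sum of at least 3 there were 61 higher and 33 lower between the libraries, and with at least 6 there were 151 lower against sinusoidal barcodes. With the gate applied after thinning to 3000 UMIs (98 and 97 members) there were 30 lower between the libraries, and 349 higher and 243 lower against sinusoidal barcodes. With no limit on UMIs or cells these counts were 195, 215, 358 and 96, and with a ratio of at least 1.5 they were 125, 192, 343 and 239. Leaving out members with over 2% hepatocyte UMIs gave 87 lower against sinusoidal barcodes. After seeing the data, leaving out the set-aside barcodes gave 24 lower between the libraries, and leaving out each gene's top barcode gave 18 higher and 13 lower. Of the log2 ratios of single genes between the libraries, 429 stayed within their interval, 63 moved and 2 reversed: Krt8 to 0.57 and Ppp1r3b to 0.63, both with the gate applied after thinning. The cause was not tested. Set-aside barcodes and the few Gja5-positive members limit what the libraries can show, and counting intervals leave out the spread between animals.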
